A study of Rattus norvegicus with 12 samples.

Results

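The cytochrome P450 (Cyp) gene family was followed in the kidneys of lean and obese rats fed with or without rosiglitazone. Its members were taken as every gene whose array annotation gave a single symbol that begins with Cyp and a digit, apart from Cyp51, which makes cholesterol. That rule found 57 of 14217 genes with a symbol, on 64 of 31042 probe sets. A probe set is a group of short DNA probes that together read 1 transcript. Another 7 probe sets named several family members at once and were left out. The probe set with the highest mean signal stood for each gene, and 29 of the 57 genes were bright enough to be tested.

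Kidney RNA came from 12 male Zucker rats, 1 array per rat, described by the labels as a model for diabetes. The obese form of this strain has a defective leptin receptor. Such rats overeat and become insulin resistant, and the labels give neither the alleles nor the age of either body type. There were 4 groups of 3 rats. Lean controls and obese controls ate ground chow, while the rosiglitazone groups, lean and obese, took the drug in that chow at 3 mg/kg of body weight. All groups were fed for 12 weeks. Rosiglitazone is a thiazolidinedione that activates the nuclear receptor PPARgamma and sensitises tissues to insulin.

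Cytochrome P450 enzymes hold a haem group and add an oxygen atom to their substrate. Those in the endoplasmic reticulum draw electrons from the reductase Por, those in mitochondria from the ferredoxin Fdx1. In the kidney, Cyp4a and Cyp4f enzymes hydroxylate the end of the arachidonate chain, and the product constricts small vessels and restrains salt uptake by the tubule. Epoxygenases of the Cyp2c and Cyp2j subfamilies turn arachidonate into epoxides that dilate vessels, which the epoxide hydrolases Ephx1 and Ephx2 break down. Cyp27b1, in the proximal tubule, makes the active form of vitamin D. Other members act on steroids, bile acids, retinoic acid, drugs and foreign chemicals.

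The values are signals of the Affymetrix Rat Genome 230 2.0 array, a brightness with no unit, computed by the MAS5 algorithm. Median signal was 204 to 238.6 per array, and the number of arrays limits the precision. Differences are log2 changes of (signal + 16) from 1 limma fit to all 12 arrays, given with their standard error (SE), and p-values were adjusted by Benjamini-Hochberg over the 18625 probe sets tested. A gene was called when its adjusted p was under 0.05. Signals of different genes come from different probes, so no difference in expression between genes is read from them. The arrays fell into a class of 5 with a higher signal of the cre hybridization control (19916 to 21951) and a class of 7 with a lower one (14412 to 16658). The higher class held 4 of 6 lean and 1 of 6 obese arrays.

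Obese and lean kidneys differed in 11 of the 29 tested members over both diets, and 9 of those 11 were lower in the obese rats. The lower genes were the omega-hydroxylases Cyp4f6, Cyp4f1 and Cyp4a3, the epoxygenases Cyp2c23 and Cyp2c11, the drug-metabolising Cyp2d4 and Cyp2d2, Cyp2t1, and the bile acid enzyme Cyp8b1. Cyp4v3 and Cyp20a1 were higher. Over all tested probe sets, 14.3% were called in this comparison, 6.62% lower and 7.69% higher. The median log2 change was -0.06 for the 29 members and 0.03 for all probe sets. All 6 obese arrays lay on 1 side of all 6 lean arrays for 6 members, 2 above (Cyp4v3, Cyp20a1) and 4 below (Cyp2d4, Cyp4f6, Cyp4a3, Cyp4f1), beside 7.30% of all probe sets.

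On control diet alone, 5 members were called, Cyp4v3 and Cyp20a1 higher and Cyp2d4, Cyp4f6 and Cyp2d2 lower, against 4.74% of all probe sets (2.15% higher and 2.58% lower). Among rosiglitazone-fed rats 6 were called, the same 2 higher and Cyp2d4, Cyp4a3, Cyp4f1 and Cyp4f6 lower, against 5.00% (2.41% higher and 2.60% lower). The 3 obese arrays lay wholly below the 3 lean ones for 9 members and above for 2 on control diet, beside 25.5% of all probe sets in either direction, and for 8 and 3 on rosiglitazone, beside 23.3%. The diets use different arrays but share 1 estimate of the spread from the single fit. In that fit 4 members (Cyp4v3, Cyp20a1, Cyp2d4, Cyp4f6) were called on both, beside 2.34% of all probe sets. When limma was fitted to each diet's groups alone, Cyp20a1 was called on neither diet (adjusted p = 0.0555 on control diet and 0.0849 on rosiglitazone). Cyp4f6 was then not called on rosiglitazone (adjusted p = 0.0714), while Cyp4v3 and Cyp2d4 were called on both. On both diets 14 of the 29 members had a lower mean in obese rats, beside 30.4% of all probe sets. The lower cre class held 1 rat of each lean group, so that a fit within it over both diets estimated no spread among lean rats. Its log2 changes were -0.10 for Cyp2c23, -0.22 for Cyp2d2, -0.31 for Cyp2t1, -0.35 for Cyp4a3, -0.64 for Cyp2c11, -1.16 for Cyp8b1 and 0.45 for Cyp20a1. In all arrays they were -0.41, -0.40, -0.36, -0.37, -0.77, -0.83 and 0.43, in the same order. On a single diet each class leaves 1 rat in an arm, assumed to vary like the rest, so that these fits can call little. On control diet the higher class held 2 lean arrays and 1 obese one, the lower class 1 lean and 2 obese, and no member was called in either. The Cyp2d4 log2 change was -0.69 and -0.65 there, beside -0.68 in all arrays. On rosiglitazone the lower class held 1 lean and 3 obese arrays, and of the 6 members Cyp4v3 was called there, along with Cyp1a2, which was not called in all arrays.

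**Figure D1:**
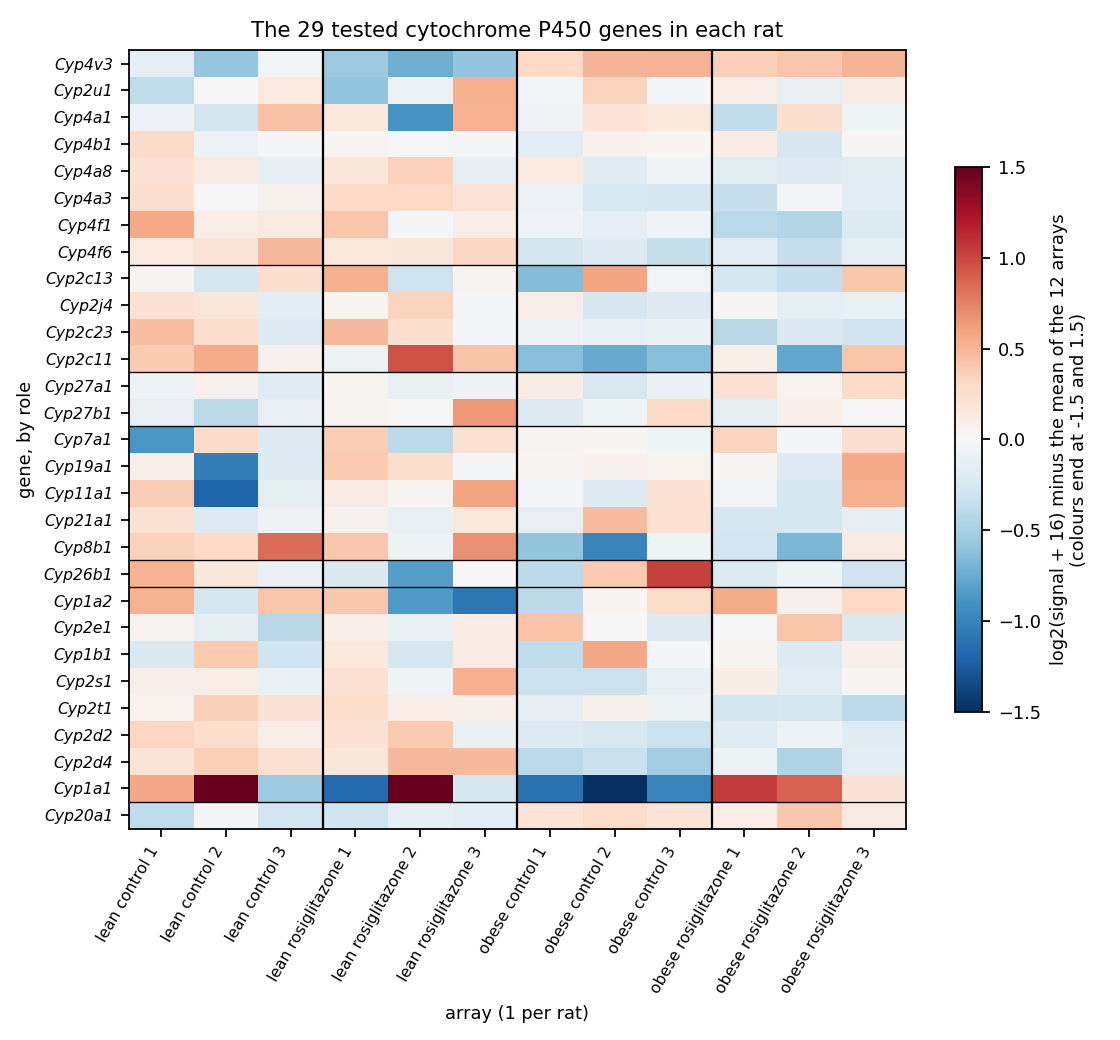
Each row is 1 of the 29 tested members, grouped by role, and each column 1 array. Colour gives the log2 of (signal + 16) minus the gene's mean over the 12 arrays, red above and blue below. Cyp4v3 and Cyp20a1 are red in the 6 obese columns, Cyp4f6 and Cyp2d4 are blue there, and Cyp1a1 varies most from rat to rat.

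Markers of kidney segments moved with the same contrast. Of 13 tested proximal tubule markers, out of 14 listed, 11 were lower in obese rats over both diets and 1, Slc5a2, was higher, with a median log2 change of -0.43. Slc5a2 read 36.5 to 57.6 in the 4 lean arrays of the higher cre class. In the 2 lean arrays of the lower class it read 501.6 and 666.5, within the obese range of 164.7 to 1704. The summed signal of the 14 listed markers was 107693 to 131531 in lean controls and 109989 to 131821 in lean rosiglitazone rats. It was 85735 to 99507 in obese controls and 85296 to 89366 in obese rosiglitazone rats, below every lean array. Of 7 distal and collecting duct markers 4 were higher and none lower, with a median of 0.46 and sums of 22982 to 30046 in lean and 33796 to 38006 in obese rats. The proximal tubule is the main site of many of these enzymes, and in whole tissue fewer cells of a type and less RNA per cell cannot be told apart. Of 4 thick ascending limb markers 2 were higher and 1 lower. The part of these markers in the P450 differences was not tested.

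Of 7 tested fat cell markers, out of 9, 6 were lower and 1 higher in obese rats over both diets. The higher one was Lpl, and the median log2 change was -1.24. On control diet Ucp1 read 631.9 to 894 in lean and 4.1 to 32.8 in obese rats, and Fabp4 1065 to 2408 and 216.2 to 501.9. Adipoq overlapped, at 588.6 to 670.2 and 409.8 to 643.5. The summed signals were 5401 to 8248 in lean controls, 11574 to 22667 in lean rosiglitazone, 4240 to 5798 in obese control and 8706 to 9966 in obese rosiglitazone rats. Lpl, with a mean of 3391 in obese controls, made up most of the sums there. Of 6 adrenal cortex markers 5 had a probe set and 2 were tested, 1 of them called. Mrap was lower, with a log2 change of -1.17 ± 0.13 (adjusted p = 5.1e-05), and Nr5a1 was not called, at 0.12 ± 0.18 (adjusted p = 0.714). With 1 gene called, the list does not show a difference in adrenal tissue. Hsd3b1, not tested, read 14 to 202.1. The defining steroidogenic marker Star read 15.6 to 67.4 and Akr1b7 9.3 to 74.2, near the level of the bacterial control probe sets (up to 59.6). Of 8 hepatocyte markers 5 were tested and 1 was lower, 2 (Apoa1 and Tat) were at or below that control level on all arrays, and the sums were 1053 to 2084. Both red blood cell markers were higher in obese rats in the comparison over both diets. On rosiglitazone both were called, with a median log2 change of 1.38, and on control diet neither was, with a median of 0.12. No member of the podocyte or endothelium lists was called there, and 1 of 3 tested leukocyte markers was lower. The part of these cells in the P450 values was not tested.

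**Figure D2:**
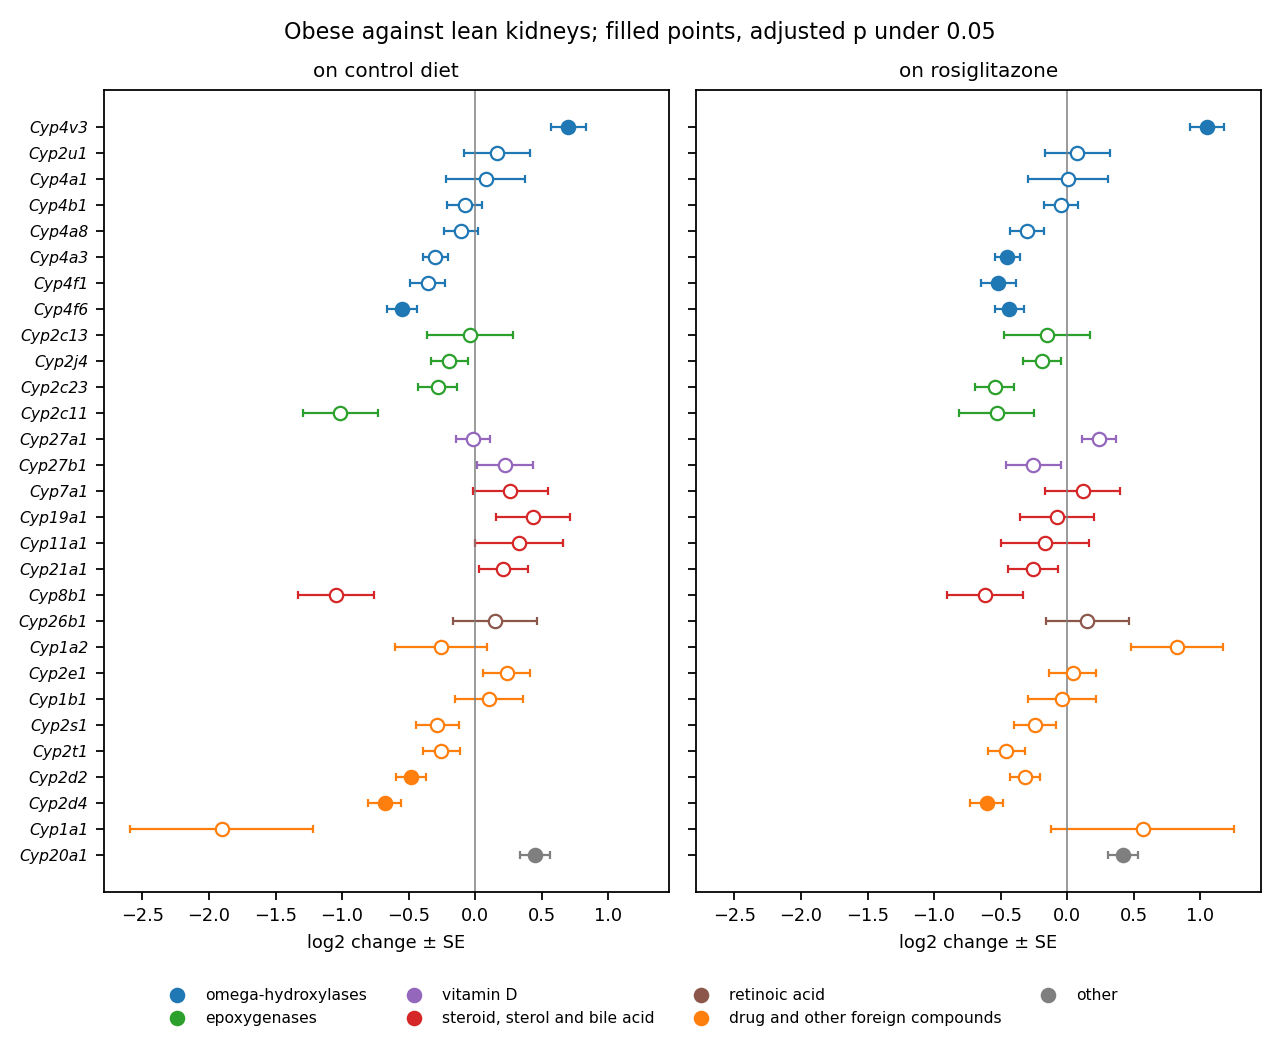
Points give the log2 change of obese against lean kidneys for the 29 tested members, with the standard error as a bar, on control diet (left) and on rosiglitazone (right). Filled points have an adjusted p under 0.05, 5 on the left and 6 on the right, and colour gives the role.

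Omega-hydroxylases were the Cyp4 genes and Cyp2u1, 11 genes of which 8 were tested. Over both diets 3 were lower, 1 was higher and 4 were not called. Cyp4v3, a fatty acid hydroxylase whose human counterpart is lost in Bietti crystalline dystrophy of the eye, was the 1 higher gene. Its signal was 1239, 914.5 and 1332 in lean controls and 937.3, 817.4 and 907 in lean rats on rosiglitazone. In obese rats it was 1696, 1963 and 1978 on control diet and 1757, 1833 and 1966 on rosiglitazone. Every obese value lay above every lean one. The increase was 1.62-fold on control diet (log2 change 0.70 ± 0.13, adjusted p = 0.00744) and 2.07-fold on rosiglitazone (log2 change 1.05 ± 0.13, adjusted p = 0.000434). Of the 2 Cyp4v3 probe sets the second was too dim to be tested, at 35.4 to 222.3.

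Cyp4f6 and Cyp4f1, which belong to a subfamily that hydroxylates leukotrienes and fatty acids, fell in obese rats. The Cyp4f6 signal was 1142, 1178 and 1448 in lean control and 1155, 1163 and 1282 in lean rosiglitazone rats, against 850.1, 894.3 and 800.9 in obese control and 914.9, 808.3 and 930.8 in obese rosiglitazone rats. Lean and obese values did not overlap. The log2 change was -0.55 ± 0.11 (adjusted p = 0.0122) on control diet and -0.43 ± 0.11 (adjusted p = 0.0379) on rosiglitazone. The Cyp4f1 signal was 7505, 5416 and 5514 in lean control and 6740, 4958 and 5417 in lean rosiglitazone rats, against 4853, 4574 and 4813 in obese control and 3787, 3721 and 4361 in obese rosiglitazone rats. The lowest lean array, the second on rosiglitazone, was just above the highest obese one. The difference was called on rosiglitazone (log2 change -0.52 ± 0.13, adjusted p = 0.0377) and over both diets (log2 change -0.44 ± 0.09, adjusted p = 0.00672) and not on control diet (log2 change -0.36 ± 0.13, adjusted p = 0.152).

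In the rat genome Cyp4f1 and Cyp4f6 are neighbours with 0 coding genes between them. Their promoters, from RefSeq on build GRCr8, are shown because the pair fell together. The Cyp4a3 promoter is shown because that gene is the Cyp4a member called lower by the probe set that stood for it. Each runs from 250 bases before to 50 bases after the annotated start, 5′ to 3′ on the gene's strand. Capitals mark matches on either strand to GCGTG (the core of the Ahr response element), AGGTCA (the nuclear receptor half-site) or GTTAAT (the half-site of Hnf1).
Cyp4f6, chr7:12708329-12708628, minus strand: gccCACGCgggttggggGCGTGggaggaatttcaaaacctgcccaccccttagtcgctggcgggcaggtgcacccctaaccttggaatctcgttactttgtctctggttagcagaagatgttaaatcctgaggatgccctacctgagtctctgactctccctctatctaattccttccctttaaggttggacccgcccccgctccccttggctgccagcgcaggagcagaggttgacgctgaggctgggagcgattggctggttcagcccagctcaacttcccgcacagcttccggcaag
Cyp4f1, chr7:12672504-12672803, minus strand: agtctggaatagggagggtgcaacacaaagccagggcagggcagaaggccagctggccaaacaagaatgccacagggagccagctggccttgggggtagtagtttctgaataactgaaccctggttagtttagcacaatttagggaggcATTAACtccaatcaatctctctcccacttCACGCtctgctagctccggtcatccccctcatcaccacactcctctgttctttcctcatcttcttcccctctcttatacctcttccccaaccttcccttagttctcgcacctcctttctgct
Cyp4a3, chr5:134352187-134352486, minus strand: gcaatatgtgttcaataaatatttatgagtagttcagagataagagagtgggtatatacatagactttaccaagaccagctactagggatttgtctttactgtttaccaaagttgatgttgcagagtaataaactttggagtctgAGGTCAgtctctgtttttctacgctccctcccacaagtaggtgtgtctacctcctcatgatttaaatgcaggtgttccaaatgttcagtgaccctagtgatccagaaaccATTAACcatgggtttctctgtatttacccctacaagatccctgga
Cyp4f6 held GCGTG at -247 (on the opposite strand) and -233 from its start, and Cyp4f1 at -72 with GTTAAT at -101, both on the opposite strand. The 2 promoters were 49.1% identical over their alignment. Cyp4a3 held AGGTCA at -105 and GTTAAT on the opposite strand at 6. Of 57 members 45 had a promoter in the table, as had 10 of the 11 called genes. GCGTG stood in 24.4% of the members' promoters and 29.7% of 33469 promoters of the same length, AGGTCA in 35.6% and 16.2%, and GTTAAT in 11.1% and 7.45%. A direct repeat of AGGTCA with 1 base between, the form that PPAR receptors bind, was in no member's promoter and in 0.0538% of all. Among the 10 called genes with a promoter GCGTG stood in 4, GTTAAT in 3 and AGGTCA in 2, and Cyp2d4, Cyp8b1 and Cyp2c23 held none of these. These are matches of letters within the window only.

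Cyp4a3, an arachidonate omega-hydroxylase, had a signal of 8414, 7092 and 7412 in lean controls and 8712, 8706 and 8174 in lean rats on rosiglitazone. In obese rats the signal was 6681, 5976 and 5937 on control diet and 5545, 6905 and 6348 on rosiglitazone, so that no obese value reached a lean one. The log2 change was -0.45 ± 0.10 (adjusted p = 0.0154) on rosiglitazone, -0.37 ± 0.07 (adjusted p = 0.00227) over both diets and -0.30 ± 0.10 (adjusted p = 0.0956) on control diet. Cyp4a8 is a close relative, and Cyp4a genes are similar enough in sequence for probes to read more than 1 of them. With the diets pooled, Cyp4a8 read 8883 to 12547 in lean and 8629 to 10938 in obese rats, overlapping. Its log2 change over both diets was -0.20 ± 0.09 (adjusted p = 0.148). On rosiglitazone alone the groups did not overlap, at 9007 to 12547 in lean and 8629 to 8829 in obese rats, as for 23.3% of all probe sets in either direction. The log2 change there was -0.30 ± 0.13 (adjusted p = 0.192). Its second probe set differed by -0.29 ± 0.08 (SE; adjusted p = 0.0222), so that the 2 probe sets fell on different sides of the threshold.

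Cyp4a1, the member best known as a PPARalpha target in liver, was not called. Its signal was 960.7, 838.4 and 1381 in lean control, 1142, 542.7 and 1468 in lean rosiglitazone, 980, 1175 and 1140 in obese control and 782.3, 1219 and 973.9 in obese rosiglitazone rats, and the groups overlapped. The 95% interval of its body type difference ran from -0.42 to 0.50 over both diets. Cyp4b1, which oxidises medium-chain fatty acids and furans, read 586.4 to 856.3 over the 12 arrays with a log2 change of -0.06 ± 0.09 (adjusted p = 0.712). Cyp2u1, a hydroxylase of long-chain fatty acids, read 161.7 to 370.4 with a log2 change of 0.12 ± 0.18 (adjusted p = 0.705). Cyp4f4, Cyp4f5 and Cyp4f17 were too dim to be tested, and Cyp4f4 read 33.3 to 187.4.

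**Figure D3:**
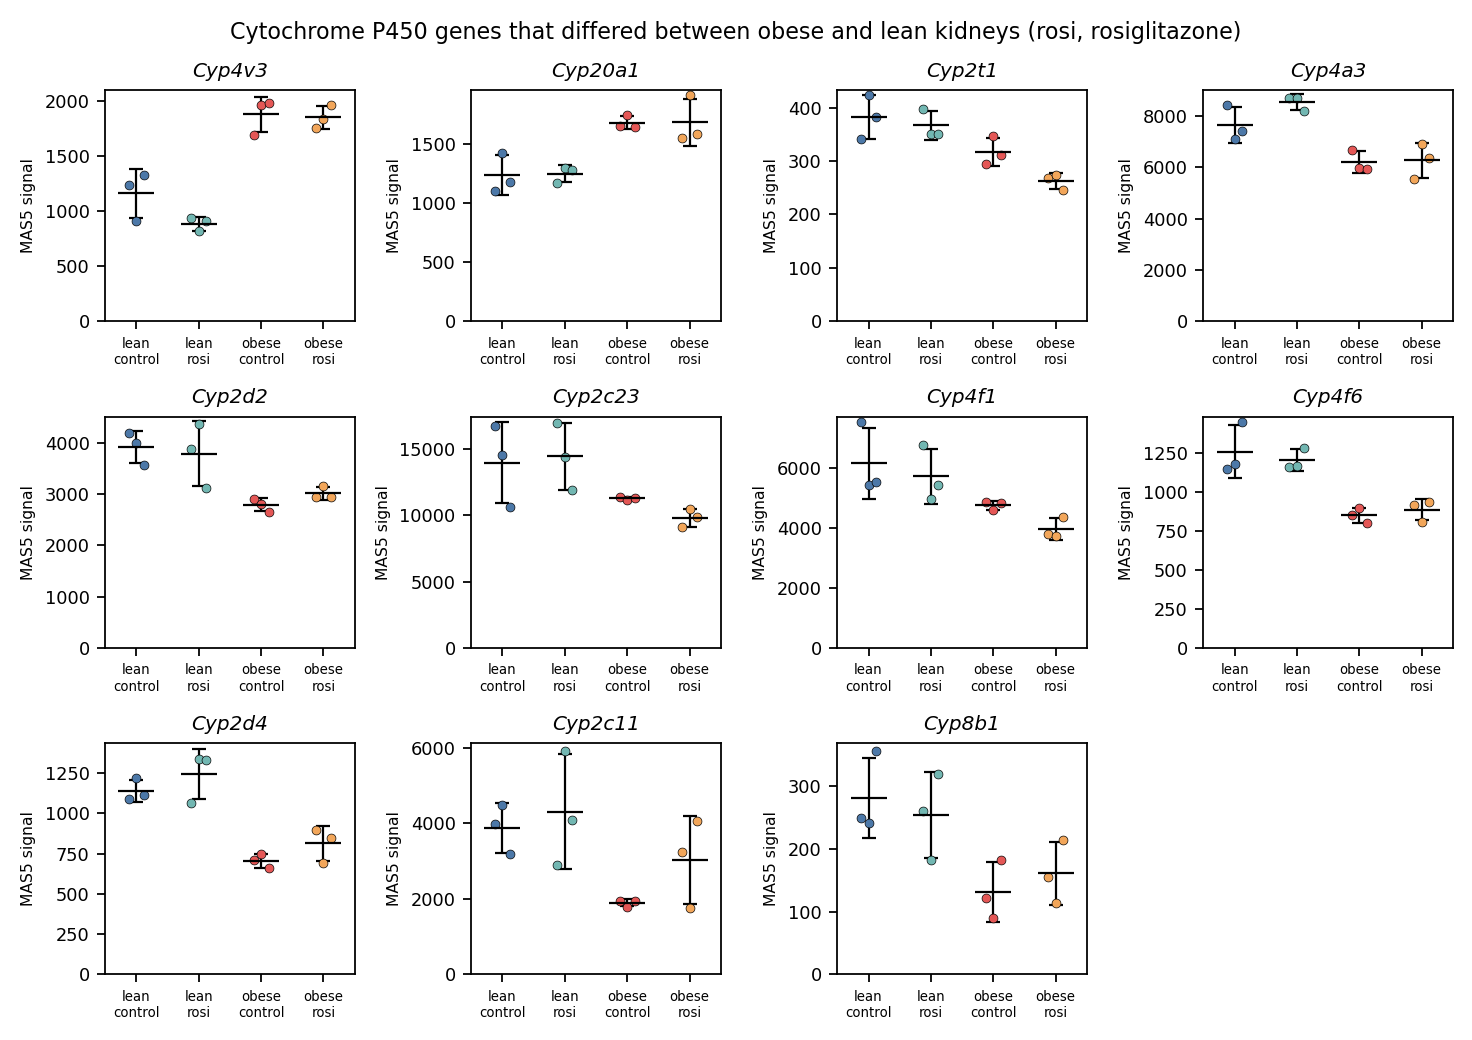
Points are the MAS5 signals of single arrays (no unit, axes from 0) for the 11 members called between obese and lean rats over both diets, by group of 3 rats. The long bar is the group mean and the whisker its SD. Obese groups lie above lean groups for Cyp4v3 and Cyp20a1, and below without overlap for Cyp4a3, Cyp4f1, Cyp4f6 and Cyp2d4.

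Epoxygenases were the Cyp2c and Cyp2j genes, 10 genes of which 4 were tested. Over both diets 2 were lower and none higher. Cyp2c23, the main arachidonate epoxygenase of the rat kidney, had a signal of 16715, 14552 and 10643 in lean controls and 16988, 14422 and 11882 in lean rats on rosiglitazone. In obese rats it was 11388, 11155 and 11309 on control diet and 9106, 10469 and 9836 on rosiglitazone. The lean arrays spread far more than the obese ones, and the lowest lean array lay among the obese values. The log2 change was -0.41 ± 0.11 (adjusted p = 0.0176) over both diets, -0.54 ± 0.15 (adjusted p = 0.0504) on rosiglitazone and -0.28 ± 0.15 (adjusted p = 0.328) on control diet. Lean arrays of the higher cre class read 14422 to 16988 and those of the lower class 10643 to 11882, whereas the 5 obese arrays of the lower class read 9106 to 11309. With the cre class in the fit the change over both diets was -0.25 (adjusted p = 0.0752). Within the lower class, with 1 rat in each lean group, it was -0.10. Under quantile normalization the change was -0.20 (adjusted p = 0.0589), so that the call was lost there too.

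Cyp2c11, the main male-specific P450 of rat liver and also an epoxygenase, read 3984, 4471 and 3173 in lean controls and 2890, 5915 and 4092 in lean rosiglitazone rats. Obese controls were low and close together at 1949, 1788 and 1947, and obese rats on rosiglitazone were spread, at 3243, 1766 and 4049. The log2 change over both diets was -0.77 ± 0.20 (adjusted p = 0.0221). It was -1.01 ± 0.28 (adjusted p = 0.0626) on control diet, where the groups did not overlap, and -0.53 ± 0.28 (adjusted p = 0.33) on rosiglitazone, where they did. The call over both diets was lost without the first or second lean control, the second lean rosiglitazone or the second obese control array (adjusted p = 0.0505 to 0.057), and with the cre class in the fit (0.0679). Its RefSeq promoter is shown as that of the epoxygenase with the larger difference.
Cyp2c11, chr1:246174966-246175265, plus strand: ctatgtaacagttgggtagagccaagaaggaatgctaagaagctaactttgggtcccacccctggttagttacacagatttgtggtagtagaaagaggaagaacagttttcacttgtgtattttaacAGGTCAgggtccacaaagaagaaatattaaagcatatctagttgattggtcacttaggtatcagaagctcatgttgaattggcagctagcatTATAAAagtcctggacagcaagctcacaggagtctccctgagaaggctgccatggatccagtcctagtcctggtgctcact
Capitals mark AGGTCA at -123 and TATAAA at -31. TATAAA, the TATA box, was in 28.9% of the members' promoters and 14.2% of all.

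Cyp2j4, an epoxygenase found in several rat tissues, read 616.1 to 873.1 in lean and 575.5 to 743.3 in obese rats. The groups overlapped and the log2 change was -0.19 ± 0.10 (adjusted p = 0.235). Cyp2c13, another male-specific liver form, read 91.6 to 239.5 with a log2 change of -0.10 ± 0.23 (adjusted p = 0.826). Of the 6 epoxygenase genes left out, Cyp2j3 read 87.8 to 196.9 and Cyp2j10 24.7 to 131.4. Neither epoxide hydrolase was called between body types. The log2 change over both diets was -0.24 ± 0.10 (adjusted p = 0.135) for Ephx1 and 0.02 ± 0.07 (adjusted p = 0.9) for Ephx2, the soluble enzyme that hydrolyses arachidonate epoxides.

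Vitamin D enzymes with a probe set of their own were Cyp27b1 and Cyp27a1, and neither was called in any comparison. Cyp27b1 read 190.8, 155.3 and 191.5 in lean control, 215.3, 210.8 and 337.9 in lean rosiglitazone, 181.7, 199.5 and 258.4 in obese control and 188.9, 221.2 and 209.2 in obese rosiglitazone rats. Lean and obese values overlapped, and the 95% interval of the body type difference over both diets ran from -0.33 to 0.30. The third lean rosiglitazone array stood highest. Cyp27a1, a mitochondrial sterol hydroxylase that also acts on vitamin D, read 461.4 to 548.3 in lean and 439.5 to 639.7 in obese rats, with a log2 change of 0.11 ± 0.09 (adjusted p = 0.474). The receptor for the hormone, Vdr, had a log2 change of 0.42 ± 0.24 (adjusted p = 0.282).

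Steroid, sterol and bile acid enzymes were 10 genes, 5 of them tested, and 1 was lower over both diets. Cyp8b1, which sets the share of cholic acid among bile acids in liver, read 248.8, 240.8 and 355.8 in lean control, 261, 181.7 and 319.5 in lean rosiglitazone, 122.1, 89 and 182.8 in obese control and 155.3, 113.9 and 213.6 in obese rosiglitazone rats. On control diet every obese value was below every lean one, and on rosiglitazone the groups overlapped. The log2 change was -0.83 ± 0.20 (adjusted p = 0.0141) over both diets and was called on neither diet alone, with a log2 change of -1.04 ± 0.29 (adjusted p = 0.0526) on control diet. The other 4 tested genes were not called. Cyp11a1, which cuts the cholesterol side chain, read 86.5 to 338.8 with a log2 change of 0.08 ± 0.24 (adjusted p = 0.86), and Cyp21a1, the adrenal hydroxylase of progesterone, read 196.1 to 338.9 with a log2 change of -0.02 ± 0.13 (adjusted p = 0.932). Cyp19a1, the aromatase, read 70.4 to 245.8 with a log2 change of 0.18 ± 0.20 (adjusted p = 0.608), and Cyp7a1, the rate-limiting enzyme of bile acid synthesis in liver, read 78.5 to 208.0 with a log2 change of 0.19 ± 0.20 (adjusted p = 0.586). Among those left out, Cyp11b1 read 8.3 to 59.2, Cyp17a1 11.4 to 68.8 and Cyp7b1 43.1 to 237.4. The retinoic acid hydroxylase Cyp26b1 read 106.3 to 425.3 over the 12 arrays with a log2 change of 0.15 ± 0.22 (adjusted p = 0.712), and Cyp26a1 was left out at 63.2 to 206.2.

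Enzymes of drugs and other foreign compounds were the largest group, 21 genes of which 8 were tested. Over both diets 3 were lower and none higher. Cyp2d4, a drug hydroxylase also known from rat brain, read 1088, 1220 and 1114 in lean controls and 1065, 1339 and 1332 in lean rosiglitazone rats. Obese rats read 710.2, 747.6 and 659.1 on control diet and 899.4, 690.3 and 849.7 on rosiglitazone, all below the lean range. Expression was 1.60-fold lower on control diet (log2 change -0.68 ± 0.12, adjusted p = 0.00709) and 1.52-fold lower on rosiglitazone (log2 change -0.61 ± 0.12, adjusted p = 0.0129). A second Cyp2d4 probe set moved the same way, by -0.52 over both diets (adjusted p = 0.0297).

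Cyp2d2, another drug hydroxylase of the same cluster, read 4182, 3994 and 3567 in lean control, 3880, 4368 and 3112 in lean rosiglitazone, 2907, 2811 and 2651 in obese control and 2933, 3155 and 2941 in obese rosiglitazone rats. Only the third lean rosiglitazone array lay within the obese range. Lean arrays of the higher cre class read 3880 to 4368 and those of the lower class 3112 to 3567. The obese arrays of the lower class read 2651 to 3155. Over both diets the log2 change was -0.40 ± 0.08 (adjusted p = 0.00386), and the call held with the cre class in the fit. Within the lower class, with 1 rat in each lean group, the change was -0.22. The log2 change was -0.48 ± 0.11 (adjusted p = 0.0243) on control diet and -0.32 ± 0.11 (adjusted p = 0.122) on rosiglitazone. Cyp2d genes are near-identical in places, so their probe sets may share signal. Cyp2t1 read 341.2 to 423.6 in lean and 245.3 to 346.1 in obese rats. The log2 change over both diets was -0.36 ± 0.10 (adjusted p = 0.0257), and it was not called with the cre class in the fit (adjusted p = 0.0601) or without any 1 of 5 arrays: the second lean control, the first lean rosiglitazone, the obese control arrays 1 or 3, or array 3 of the obese rosiglitazone rats (0.0599 to 0.0618).

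The remaining 5 tested genes of this group were not called. Cyp2e1, which oxidises ethanol and ketone bodies, read 2777 to 3994 in lean and 3175 to 4965 in obese rats, and its interval over both diets ran from -0.13 to 0.41. Cyp1b1, which oxidises oestradiol and aromatic hydrocarbons, read 149.2 to 305.7 with a log2 change of 0.03 ± 0.18 (adjusted p = 0.931), and Cyp2s1 read 325.0 to 602.0 with a log2 change of -0.26 ± 0.11 (adjusted p = 0.14). Cyp3a9 was left out at 23.3 to 89.5. Cyp1a1, the best known target of the receptor Ahr, varied most. It read 1047, 2026 and 472.4 in lean control, 301, 2578 and 582.2 in lean rosiglitazone, 310.5, 156.2 and 343.6 in obese control and 1457, 1300 and 809.7 in obese rosiglitazone rats. Obese controls lay below all lean controls, while the second array of each lean group stood highest. On control diet the log2 change was -1.90 ± 0.69 (adjusted p = 0.153). Cyp1a1 was called there under 1 of 24 alternatives, without the second lean rosiglitazone array (adjusted p = 0.0436), which is in the fit but not in that comparison. Its neighbour Cyp1a2, which oxidises caffeine and aromatic amines, read 78.4 to 271.6 in lean and 137.2 to 279.7 in obese rats with a log2 change of 0.83 ± 0.34 (adjusted p = 0.194) on rosiglitazone. It was called there without the first lean rosiglitazone array (adjusted p = 0.029), and also within the lower cre class, which left 1 lean array.

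Cyp20a1, an orphan P450 with no settled substrate, was the other gene higher in obese rats. It read 1099, 1426 and 1181 in lean control and 1166, 1300 and 1280 in lean rosiglitazone rats. In obese rats it read 1653, 1741 and 1646 on control diet and 1547, 1911 and 1585 on rosiglitazone, all above the lean values. The log2 change was 0.45 ± 0.11 (adjusted p = 0.0372) on control diet, 0.42 ± 0.11 (adjusted p = 0.0471) on rosiglitazone and 0.43 ± 0.08 (adjusted p = 0.00256) over both. Its RefSeq promoter is shown as that of a gene that was higher.
Cyp20a1, chr9:69249623-69249922, plus strand: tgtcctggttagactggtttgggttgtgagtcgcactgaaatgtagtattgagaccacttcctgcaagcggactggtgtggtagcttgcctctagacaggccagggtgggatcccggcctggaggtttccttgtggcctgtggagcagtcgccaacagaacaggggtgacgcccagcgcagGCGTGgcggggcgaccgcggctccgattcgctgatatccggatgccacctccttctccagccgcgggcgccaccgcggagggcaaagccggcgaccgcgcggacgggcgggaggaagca
Capitals mark GCGTG at -69, the 1 match to the motifs searched. GCGTG was also in the promoters of Cyp4f6, Cyp4f1 and Cyp2t1, which were lower in obese rats.

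The 28 members left out had signals of 1.3 to 237.4. Of these 28 genes 7 did not rise above the bacterial control level of 59.6 on any array, and 7 were above it on all. When they were tested with no filter, none was called in any comparison. The smallest adjusted p over both diets was 0.0734, for Cyp2j10 with a log2 change of 0.87. In that comparison 3 of the 28 had an unadjusted p under 0.05, beside 28.1% of the 18625 probe sets in the filtered fit.

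The partner genes of the enzymes were counted as lists. Of 10 genes for electron transfer and haem supply 9 were tested, and over both diets 2 were lower, with a list median of -0.06. Alas1, the first enzyme of haem synthesis, read 2504, 2526 and 2075 in lean control, 2080, 3000 and 1624 in lean rosiglitazone, 1350, 1023 and 1403 in obese control and 1245, 1971 and 1387 in obese rosiglitazone rats. Its log2 change was -0.72 ± 0.15 (adjusted p = 0.00673), and the groups on rosiglitazone overlapped. The electron carrier Cyb5a had a log2 change of -0.28 ± 0.09 (adjusted p = 0.0382). Por had a log2 change of 0.04 ± 0.12 (adjusted p = 0.876). Of 13 receptors and partners that control P450 genes 9 were tested and 1, Hnf4a, was lower. Hnf4a, a regulator of many proximal tubule and liver genes, had means of 10283 and 9577 in the lean and 7848 and 7867 in the obese groups, with a log2 change of -0.34 ± 0.06 (adjusted p = 0.00149). Ahr had a log2 change of -0.44 ± 0.14 (adjusted p = 0.0544) and Pparg had a log2 change of 0.05 ± 0.15 (adjusted p = 0.88). Of 18 PPARalpha targets 14 were tested; over both diets Angptl4 and Plin2 were higher, and Acadm, Ehhadh, Decr1 and Ech1, enzymes of fatty acid oxidation, were lower.

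No member was called between rosiglitazone and control diet. In lean rats none of the 29 had an adjusted p under 0.05 by limma, against 0.00537% of all probe sets, and 3 had an unadjusted p under 0.05 against 4.79%. Those were Cyp4v3 (log2 change -0.37 ± 0.13, adjusted p = 0.981), Cyp1a2 (log2 change -0.74 ± 0.34, adjusted p = 0.981) and Cyp27b1 (log2 change 0.45 ± 0.21, adjusted p = 0.981). In obese rats none was called by limma, against 0.0698%, and 2 had an unadjusted p under 0.05 against 4.92%, Cyp1a1 and Cyp21a1. Over both body types none was called by limma, against 0.0591%, and 1 (Cyp26b1, log2 change -0.54 ± 0.22, adjusted p = 0.92) had an unadjusted p under 0.05 against 5.08%. No gene of the partner lists above was called for the drug. Of the 7 tested fat cell markers none was called for the drug in lean rats, with a median log2 change of 1.15. In obese rats 1 was higher (Fabp4), with a median of 0.45, and over both body types 2 were higher (Fabp4 and Ucp1), with a median of 0.67.

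Cyp1a1 had the largest drug difference among members, with a log2 change of 2.10 ± 0.69 (adjusted p = 0.697) in obese rats, where the 3 treated arrays lay above the 3 controls. Such separation held for 11.9% of all probe sets in that comparison. In lean rats the log2 change was -0.37 ± 0.69 (adjusted p = 0.997), with the groups overlapping. The difference between the body types' drug effects was 2.47 ± 0.97 (adjusted p = 0.992), and no member was called by limma in that test, against 0.00% of all probe sets. In it 2 members had an unadjusted p under 0.05 against 4.31%. When the obese groups were fitted without the lean ones, whose spread for this gene was wider, Cyp1a1 was called (adjusted p = 0.0391).

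The intervals of the drug difference varied in width among the arachidonate enzymes. For Cyp4a3 the 95% interval was -0.04 to 0.37 in lean and -0.19 to 0.22 in obese rats, and for Cyp4a8 -0.21 to 0.33 and -0.41 to 0.13. Cyp4a1 had wider ones, -0.74 to 0.56 in lean and -0.81 to 0.49 in obese rats. For Cyp2c23 the interval was -0.26 to 0.37 in lean and -0.52 to 0.11 in obese rats, and for Cyp2c11 it was -0.51 to 0.71 and -0.02 to 1.20. A p-value that misses the threshold does not show equal expression.

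**Figure D4:**
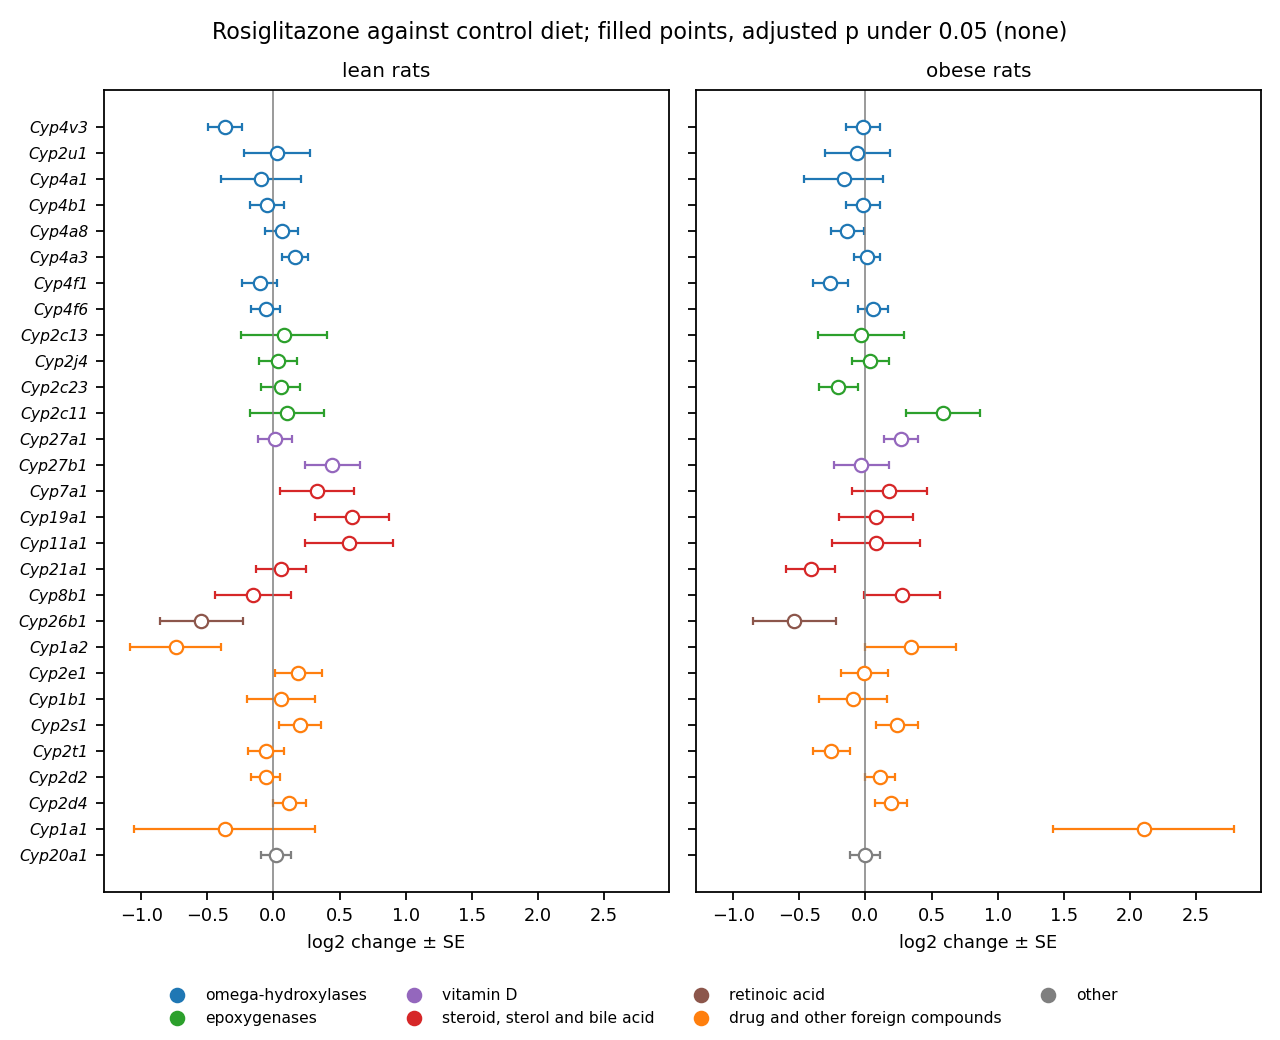
Points give the log2 change of rosiglitazone against control diet for the 29 tested members, with the standard error as a bar, in lean rats (left) and obese rats (right), coloured by role. Open points were not called, and none was; Cyp1a1 in obese rats lies farthest from 0, at 2.10.

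**Figure D5:**
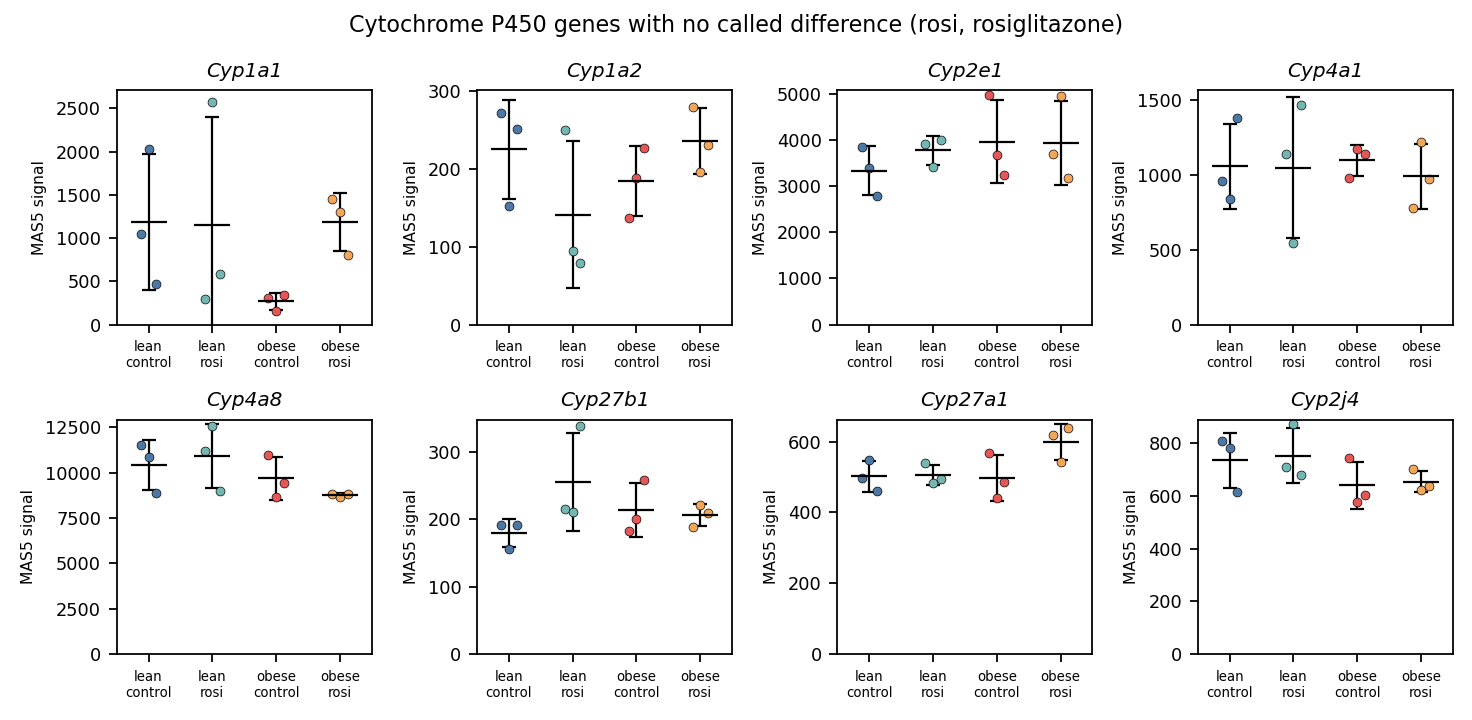
Points are the MAS5 signals of single arrays (no unit, axes from 0) for 8 members not called in any comparison, by group, with the group mean and SD. Cyp1a1 runs from 156.2 to 2578 across the 12 arrays, and with the diets pooled lean and obese values overlap for all 8.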

How the data were processed

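Total RNA of 12 kidneys was hybridised to Affymetrix Rat Genome 230 2.0 arrays. The deposited intensity values are signals that, per the submitters' processing notes, the authors made with MAS5; its version is not given in the sources used here. On every array the trimmed mean (2% off each end) was 500.12 to 500.15, so each array had been scaled to 1 level. Of 31099 probe sets 57 array controls were left out; 20826 of the rest had 1 symbol, 436 several and 9780 none, in an array annotation that can be old.

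The fit used limma 3.58.1 (statmod 1.5.0, R 4.3.3) on log2(signal + 16), leaving out probe sets below the 40th percentile of mean log2 value (7.32), with 4 group means, contrasts and eBayes with trend and robust settings. Titles give each array's group and a replicate number. Same-numbered arrays are different rats, and their deviations correlated between -0.13 and 0.18 over the pairs of groups compared. Between the 2 lean groups the correlations were 0.10 to 0.18, and all 3 lean control arrays matched their own number best. In both lean groups arrays 1 and 2 were in the higher cre class and array 3 in the lower. The numbers were not taken as pairs in the main fit, and a replicate block was run as an alternative. No 2 arrays held identical values. The script was tested on simulated data.

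Named are all called members, the 2 of each role with the highest mean signal (a rank used only to choose names), and a list of well known members. Roles were set by symbol. Members, lists and tests were chosen with earlier results of these data known. Promoters came from RefSeq (GRCr8); 57 of 57 members matched that release's gene table. Alternatives were the offset, filter, scaling, eBayes settings, arrays fitted, replicate block, cre class (the split of arrays by the cre control signal, which no label explains), probe sets counted and each array left out.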

Additional observations from a re-analysis of the deposited data

How the results depend on the processing

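No called member changed sign under any alternative run. Over both diets Cyp4v3, Cyp2d4, Cyp4f6 and Cyp4f1 were called under all 22 alternatives, while the count was 11 in the full fit, 4 within the lower cre class, 8 with the class as a covariate and 9 to 12 with 1 array left out. On control diet the count of 5 became 3 with eBayes without trend and robust settings. It became 3 to 8 with 1 array left out (3 without lean control 1 or obese control 2 or 3, 8 without lean rosiglitazone 2). Within each cre class on that diet 1 arm held 1 rat, assumed to vary like the rest, so that a count there says little. In the higher and the lower class the log2 changes were 0.66 and 0.56 for Cyp4v3, 0.40 and 0.51 for Cyp20a1 and -0.69 and -0.65 for Cyp2d4. They were -0.44 and -0.76 for Cyp4f6 and -0.49 and -0.38 for Cyp2d2. On rosiglitazone the count of 6 became 3 with no filter, 2 with each array centred on its median, 2 with eBayes without trend and robust settings, 2 within the lower class (Cyp4v3 kept and Cyp1a2 added, with 1 lean array) and 2 to 7 with 1 array left out (2 without obese rosiglitazone 1 or 2, 3 without obese rosiglitazone 3, lean rosiglitazone 1 or obese control 2 or 3). On that diet Cyp20a1 was called under 6 of 23 alternatives, Cyp4f1 and Cyp4f6 under 10 each and Cyp4v3 under all 23. On control diet Cyp20a1 was called under 13 of 24 and Cyp2d2 under 16. For rosiglitazone in obese rats the count was 1 with only the groups of the comparison fitted. The cause of these shifts was not tested. With the replicate block the counts were 6 on control diet, 7 on rosiglitazone, 11 over both diets and 0 for each drug comparison, and Cyp8b1 on control diet and Cyp2c23 on rosiglitazone were then called. Within-class drug fits and the higher class on rosiglitazone gave no value where a class lacked a group. Centring on the median moved the share of higher calls among all probe sets on control diet from 45.5% to 34.7%; quantile normalization moved it from 69.2% to 42.9% for the drug in obese rats. In lean rats, where 1 probe set was called, the share went from 100% to 50% under quantile normalization and 33.3% under centring. With 3 arrays per group, few calls on 1 diet held against the loss of an array.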
